A study of Mus musculus with 9 samples.

Results

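The 10 genes described here, Zp1, Zp2, Zp3, Gdf9, Bmp15, Oosp1, Mos, H1f8, Zar1 and Btg4, are messages that the growing mouse oocyte makes and stores. They were chosen by name from the 53819 genes listed for each library, with earlier results of these data known. The libraries came from total RNA of C57BL/6J morulae, the compacting embryos that precede the blastocyst, all produced by in vitro fertilization with the Nakagata protocol in CARD media. The sires were untreated (Control, 3 libraries), given 6% EtOH (3 libraries) or given 10% EtOH (3 libraries) before conception. The sources used here do not give the number of embryos or sires behind a library, or the length of the exposure. The p-values therefore measure only how far these libraries differ from each other, and that spread could be technical.

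An oocyte stops transcribing before it matures, and the egg then lives on stored messages until the embryonic genome is switched on at the 2-cell stage. The stored messages are kept dormant with short tails, are translated during maturation, and are then stripped of their tails and degraded. BTG4, itself translated from a stored message, brings the CCR4-NOT deadenylase to them, and transcription from the embryo's own genome completes the clearance. By the morula stage such messages are therefore known to be scarce. No oocyte or zygote was sequenced here, so the data give the level in morulae and not the fall itself.

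Where these messages end bears on how they are stored, so the annotated 3′ ends were searched for the cytoplasmic polyadenylation element, the site through which CPEB proteins control dormant messages. Either TTTTAT or TTTTAAT, on the transcript strand only, was looked for in the last 120 bases of the 3′ UTR, or in the whole 3′ UTR where it was shorter. An element was found in 4 of the 10 genes, against 19% of 21022 coding genes of the GENCODE M21 annotation (build GRCm38). The sites follow, 5′ to 3′ in DNA letters, with the element in capitals:
Gdf9: gagtgctgtggTTTTATgtgacggaaga
Btg4: gataaatccctTTTTATgtctttttaaa
H1f8: gattctgaagcTTTTATtgtctaataag
Oosp1: TTTTAATtgtataaaatctgattaaaga
In Gdf9 the element ended 10 bases and in H1f8 39 bases before the last polyadenylation signal of the window, AATAAA in both, while the Btg4 window held neither AATAAA nor ATTAAA. The Oosp1 window held more than 1 signal. An ATTAAA lies within the printed stretch, and the last signal, AATAAA, starts 93 bases from the annotated end, against 18 to 28 bases in the other members with a signal. The zona pellucida genes Zp1 and Zp3 had annotated 3′ UTRs of only 34 and 13 bases, and Bmp15 one of 1523 bases without the element in its last 120 bases. A match describes letters in the annotation and is no evidence of a working site.

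Levels are given as CPM, counts brought to a common library total, with totals first scaled by TMM for differences in composition. Totals ran from 6263465 to 27619281 counts. In 4 files (control 2, 6% ethanol 1, 10% ethanol 1 and 10% ethanol 2) the count column had a long header that named RNA STAR, and these were the deeper libraries. The other 5 had a short header, and no source used here says what the header form stands for. A count of 3, taken as the limit of detection where a gene had none, equalled 0.108 to 0.570 CPM depending on the library. Low counts were mostly even: of the genes with 1 to 20 counts in a library, 57.7 to 72.3 percent had an even count, and 46 of the 60 member values above 0 were even. No source used here says whether the mates of a read pair were counted singly, so limits from counts may rest on fewer fragments.

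On average over the 9 morula libraries the 10 messages were scarce. Their summed level was 6.65 to 31.1 CPM, from 35 counts in 6% ethanol 2 to 597 counts in 10% ethanol 1. Of the 90 values, 30 were 0. Zp2 was the only member with a count in every library, and 6% ethanol 2 held counts for only 2 members. Among the 12488 genes that passed the filter on low counts, 75.8 percent had a count in all 9 libraries. For comparison between genes the CPM were divided by exon length in kilobases. On that scale the mean over 9 libraries ran from 0.0213 (Zar1) to 2.83 (Zp3) CPM per kilobase, below the 3.98 of the median gene that passed the filter. The median over members of their median percentile among those genes was 13.9. Zp3 stood highest, at the 39.6th percentile, and Zp1, Mos, H1f8, Zar1 and Btg4 were each below the 10th. These last 5 had not passed the filter themselves, so their low place among genes that had was largely fixed in advance. They also lower the median over members. In single libraries, 5 of the 90 values lay above the median filtered gene of that library. These were Zp3 in 6% ethanol 1, 6% ethanol 3 and 10% ethanol 1 (54.6th, 65.5th and 65.5th percentile), and Oosp1 (62.9th) and Gdf9 (57.0th) in 10% ethanol 3.

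**Figure D1:**
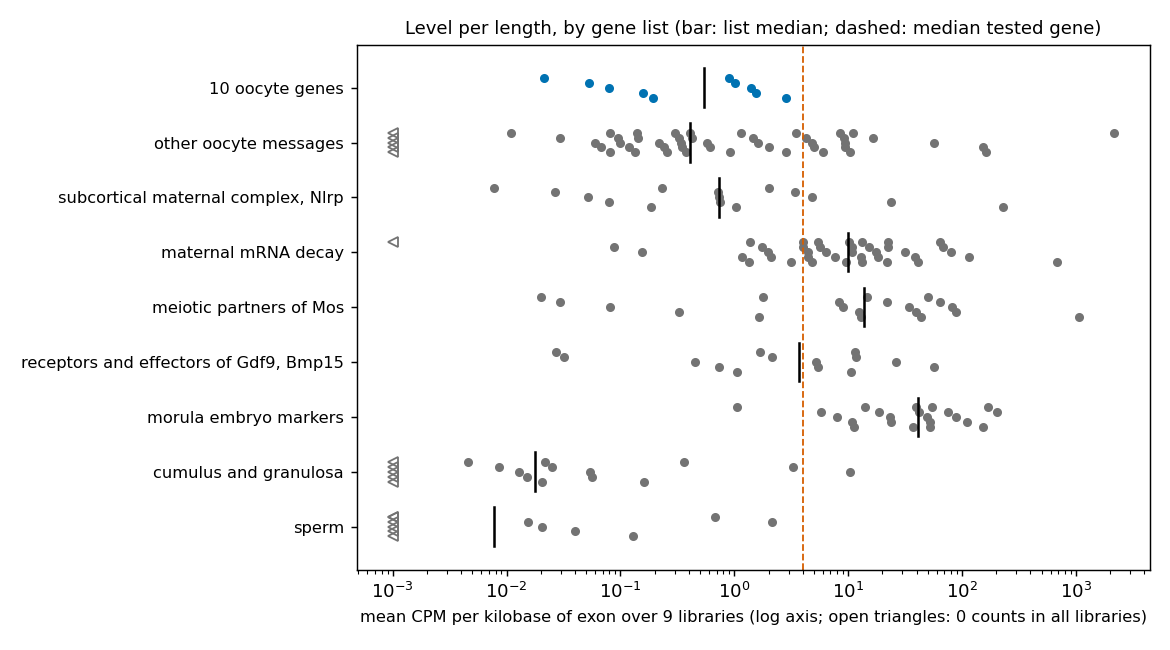
Mean level per kilobase of exon over 9 libraries (log axis) for each gene of 9 lists, with the list median as a bar and the median filtered gene as a dashed line (open triangles: 0 counts in all libraries). All 10 oocyte genes lie left of the line at 3.98 CPM per kilobase, while most morula markers lie right of it.

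The markers of the labelled stage were abundant. Of 22 morula genes, 20 had a count in every library, and their list median was 40.8 CPM per kilobase against 0.546 for the 10 oocyte genes. Klf5, a pluripotency and trophectoderm factor, had 459.8 to 1031 CPM, and Sall4, another pluripotency factor, 366 to 1002 CPM. Pou5f1 had 31.9 to 72.7 CPM. Sox2 was low and had counts in 7 libraries only.

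The zona pellucida genes code for the glycoproteins of the coat around the egg, which sperm must cross. ZP2 and ZP3 are its main filament proteins and ZP1 links the filaments. Zp3 had 1.87, 1.44 and 0.438 CPM in controls 1 to 3. With 6% ethanol it had 5.40, 0 and 9.65 CPM, and with 10% ethanol 9.60, 2.55 and 2.72 CPM. All 3 libraries of the 10% group thus lay above all 3 controls, while the 6% group held both the highest and the lowest value of the series. Zp2 had 0.163, 1.15 and 3.21 CPM in controls, 0.380, 5.89 and 0.219 CPM with 6% ethanol and 8.14, 1.53 and 1.36 CPM with 10% ethanol. Its groups overlapped, and its high libraries, 10% ethanol 1 and 6% ethanol 2, were not both high for Zp3, which was at 0 in 6% ethanol 2. Zp1 never exceeded 8 counts. It had 0.488, 0.0720 and 0 CPM in controls, 0.338, 0 and 0.439 CPM with 6% ethanol and 0, 0.0730 and 0 CPM with 10% ethanol. Per kilobase, the mean levels of Zp3, Zp2 and Zp1 were 2.83, 0.899 and 0.0790. This order of means was not tested and did not hold in every library. Zp2 exceeded Zp3 per kilobase in control 3 (1.18 against 0.331) and in 6% ethanol 2 (2.16 against 0). Zp1 exceeded Zp2 in control 1 (0.2463 against 0.0597), 6% ethanol 1 (0.1705 against 0.1395) and 6% ethanol 3 (0.2214 against 0.0805).

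GDF9 and BMP15 are growth factors of the TGF-beta family that the oocyte secretes to its follicle cells. Gdf9 had 0.163, 2.09 and 0.731 CPM in controls, 6.16, 0 and 1.10 CPM with 6% ethanol and 3.08, 2.48 and 9.64 CPM with 10% ethanol. The 10% group lay above the controls without overlap, by a small margin (lowest 2.48 against highest 2.09), and on library totals without scaling the groups touched, at 2.462 against 2.462 CPM. Bmp15 had 4.23, 1.51 and 0 CPM in controls, 2.96, 0 and 2.41 CPM with 6% ethanol and 8.76, 0.693 and 7.26 CPM with 10% ethanol. Its groups overlapped, with 10% ethanol 2 below 2 of the controls. Oosp1 codes for a small secreted protein of the oocyte. It had 0.163, 0.8997 and 1.75 CPM in controls, 2.07, 0 and 0 CPM with 6% ethanol and 0.939, 1.75 and 6.12 CPM with 10% ethanol. The 10% ethanol 3 library held the highest Gdf9 and Oosp1 values of the series.

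The remaining members stood at or near the limit of detection. MOS is the kinase that holds the egg at metaphase of the second meiotic division. It had 3 counts in control 1 (0.244 CPM), 4 counts in 10% ethanol 3 (0.454 CPM) and 0 in the other 7 libraries. Zar1, whose protein binds stored messages in the oocyte, had 3 counts in control 3 (0.438 CPM), 2 counts in 10% ethanol 3 (0.227 CPM) and 0 elsewhere. Its pseudogene Zar1-ps had 0 counts in all 9 libraries. H1f8, the linker histone of the oocyte, had 0.976, 0.216 and 0 CPM in controls, no counts with 6% ethanol and 0, 0.292 and 0.227 CPM with 10% ethanol. Over the whole 6% group, 3 counts would equal 0.0788 CPM. The 18 control counts of H1f8, pooled, equalled 0.384 CPM, 4.87-fold that limit, and 12 of them came from control 1. This ratio covers counting error only and not the spread between libraries, which included 0 counts in control 3. It is therefore no lower bound on a group difference, and edgeR without the filter did not call H1f8 for 6% ethanol against control. No fold is given for Mos or Zar1, since both sides were near 3 counts. Btg4 had counts in 8 libraries but never more than 12. It had 0.0813, 0 and 1.75 CPM in controls, 0.0844, 0.761 and 0.658 CPM with 6% ethanol and 0.626, 0.146 and 0.340 CPM with 10% ethanol, and its groups overlapped.

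**Figure D2:**
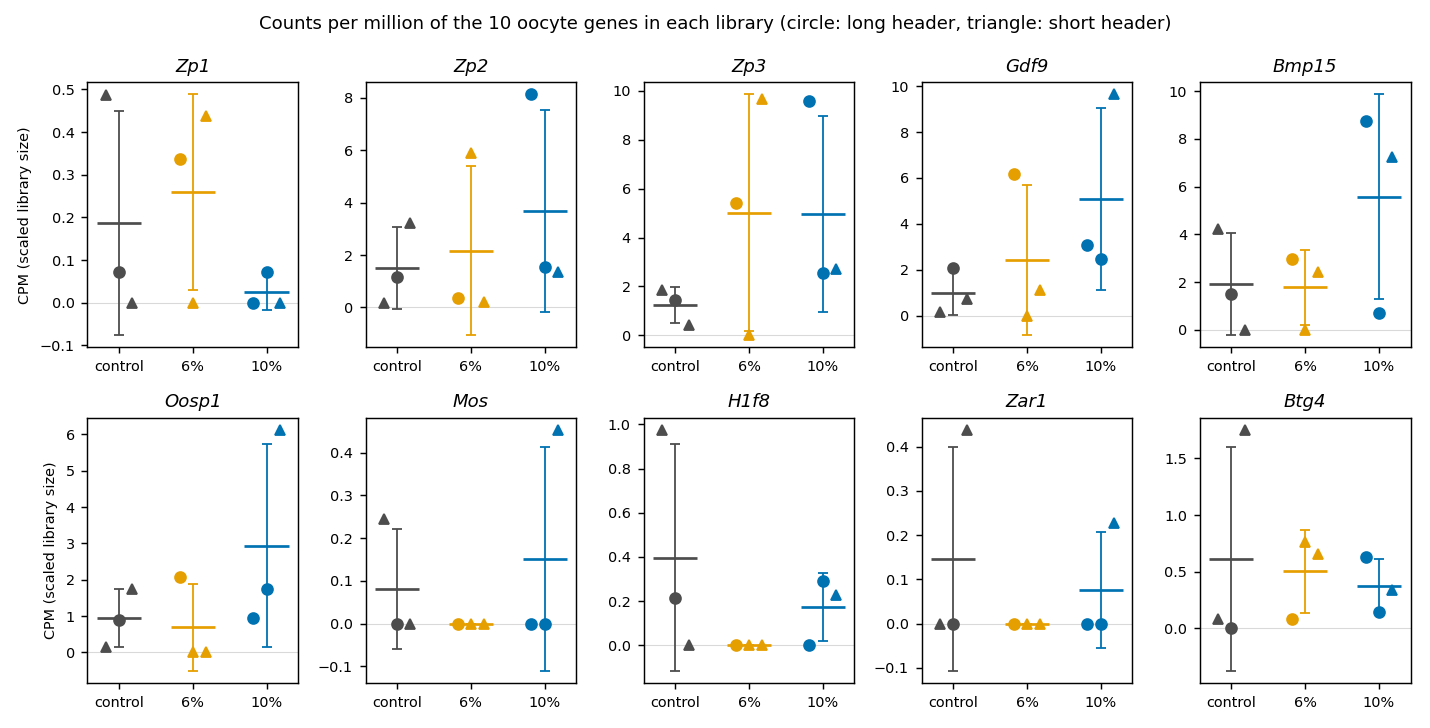
CPM of each of the 10 genes by sire group (circles: long-header libraries, triangles: short-header libraries, bar and whiskers: mean ± SD, n = 3; vertical scales differ). Zp3 in the 10% group lies wholly above its controls, from 2.55 CPM, and Mos, H1f8 and Zar1 are at 0 in all 3 libraries of the 6% group.

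Whether the sire's treatment changed these levels was tested with edgeR's quasi-likelihood test over all genes, with Benjamini-Hochberg adjustment. Only Zp2, Zp3, Gdf9, Bmp15 and Oosp1 passed the filter on low counts. None of these 5 passed the test for 6% ethanol against control, where 0 percent of 12488 genes did (0 genes). At an unadjusted p under 0.05 there were 0 of the 5, against 6.24 percent of all genes, and by DESeq2 0 of 6 members against 0.456 percent. For 10% ethanol against control, edgeR again called 0 of 5 members and 0 percent of genes. At an unadjusted p under 0.05 it had 0 of 5 against 2.14 percent, and DESeq2 called 0 of 8 against 0.145 percent. For 10% against 6% ethanol, edgeR called 0 of 5 members and 0 percent of genes. The unadjusted count was 0 of 5 against 5.33 percent, and DESeq2 called 0 of 6 against 0.464 percent. Without the filter all 10 members could be tested, and edgeR called 0 of 10 in each comparison. Of all genes it called 0.526 percent for 6% ethanol, 0.177 percent for 10% ethanol and 0.552 percent for 10% against 6%. At an unadjusted p under 0.05 there were again 0 of 10 members, against 6.96, 4.91 and 6.86 percent of genes.

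The fitted differences were large and their errors as large. For 6% ethanol against control the log2 fold change of Zp3 was 1.99 ± 1.50 (SE, adjusted p = 0.849), from 1.25 ± 0.734 CPM in controls to 5.02 ± 4.84 CPM (SD, n = 3). Gdf9 had 1.28 ± 1.56, Zp2 0.51 ± 1.57, Bmp15 -0.09 ± 1.67 and Oosp1 -0.35 ± 1.73. The median over the 5 was 0.51, with 3 above 0, beside a median of -0.01 over all genes. Standard errors of 1.50 to 1.73 exceeded the median of 1.02 over all genes, so a change of several-fold in either direction was not detectable at this depth and spread.

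For 10% ethanol, set against the same 3 controls, the log2 fold change of Gdf9 was 2.32 ± 1.61 (SE, adjusted p = 0.9999 by edgeR). Its means were 0.993 ± 0.989 CPM in controls and 5.07 ± 3.97 CPM with 10% ethanol (SD, n = 3). Zp3 had 1.97 ± 1.50, with means of 1.25 ± 0.734 and 4.96 ± 4.02 CPM. Oosp1 had 1.65 ± 1.76, Bmp15 1.53 ± 1.70 and Zp2 1.30 ± 1.58. Single libraries carried much of these values. Gdf9 was 1.46 and Oosp1 0.55 without 10% ethanol 3, Zp3 1.06 without 10% ethanol 1, Bmp15 0.95 without control 3 and Zp2 -0.03 without 10% ethanol 1. In long-header libraries alone, with control 2 as the only control, Gdf9 was 0.40. In short-header libraries, with 10% ethanol 3 as the only library of its group, Gdf9 was 4.42. All 5 were above 0, with a median of 1.65, beside 5885 of 12488 genes above 0 and a median of -0.05. Because a gene could pass the filter through the group where it was high, this count supports no direction. Groups without overlap occurred in 2 of the 5, Zp3 and Gdf9, against 8.07 percent of all genes. With only 5 genes and the same filter, this count is not read as an excess either. At 6% ethanol against control 0 of 5 did so, against 8.1 percent.

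The doses were compared directly as well. For 10% against 6% ethanol the log2 fold changes were 1.999 ± 1.77 for Oosp1, 1.61 ± 1.71 for Bmp15, 1.04 ± 1.55 for Gdf9, 0.79 ± 1.56 for Zp2 and -0.02 ± 1.44 for Zp3 (SE), with a smallest adjusted p of 0.824 by edgeR. Groups overlapped for all 5 genes, against 9.67 percent of genes without overlap. By mean level the order was 10%, 6%, control for Zp2 and Gdf9. It was 10%, control, 6% for Bmp15 and Oosp1, and 6%, 10%, control for Zp3. In none of these did neighbours in the order differ beyond their spread by the test.

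**Figure D3:**
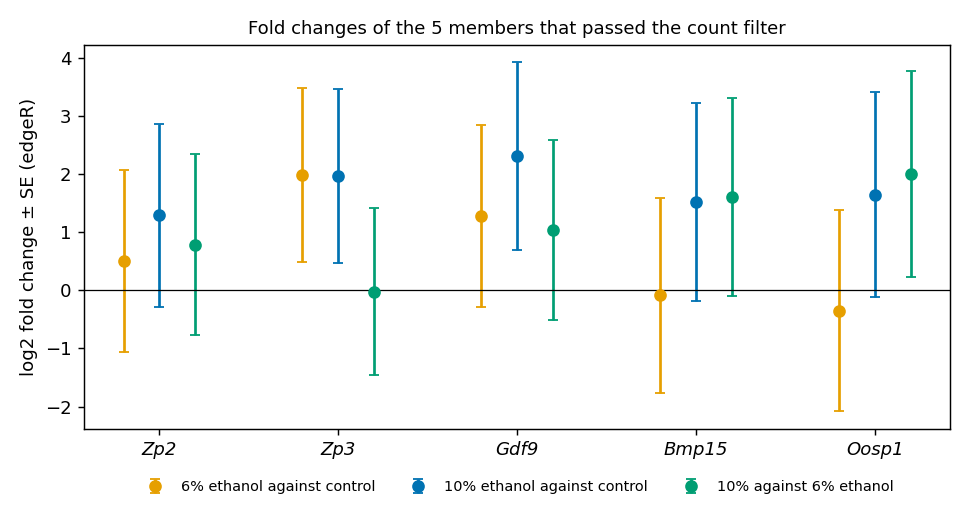
Log2 fold changes with standard errors (edgeR) of the 5 members that passed the filter, for the 3 comparisons. Points run from -0.35 to 2.32, each with a standard error between 1.44 and 1.77. No gene passed in any comparison.

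Summed over the 10 genes, the level was 8.37, 7.38 and 8.33 CPM in controls 1 to 3. With 6% ethanol it was 17.4, 6.65 and 14.5 CPM, and with 10% ethanol 31.1, 9.52 and 28.3 CPM. The lowest 10% library thus lay above the highest control under each of 4 scalings, though on library totals alone by 9.450 against 9.341 CPM. Because the sum is dominated by Zp3, Bmp15, Gdf9 and Zp2 and the genes were picked together, it carries no test. By header form, the long-header libraries had 7.38 to 31.1 CPM and the short-header libraries 6.65 to 28.3 CPM, so both forms held high and low sums. The mitochondrial share of counts moved with the difference: it was 7.05, 10.02 and 7.17 percent in controls and 15.5, 10.98 and 12.95 percent with 10% ethanol, also without overlap, and was highest in 10% ethanol 1 and 3. With 6% ethanol it was 12.25, 7.36 and 10.5 percent. The mitochondrial ribosomal RNA mt-Rnr2, at 51530 to 150400 CPM over the libraries, made up a large part of this share. With mitochondrial and rRNA genes left out of the totals the sums did not overlap, at 10.70 against 9.546 CPM. That step changes only the totals, so it cannot show whether the oocyte sums follow the mitochondrial share. The part of the mitochondrial share in the oocyte sums was not tested. In bulk RNA, fewer cells that carry a message and less message per cell cannot be told apart.

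Other lists moved with single libraries. The 2-cell list, of 17 genes in the files that are transcribed at genome activation, summed to 46.4 to 311 CPM in 8 libraries and to 1164 CPM in 10% ethanol 3, where Zfp352 had 201 CPM and Obox6 214 CPM. Obox6 was also high in 6% ethanol 3, at 209 CPM. In 10% ethanol 1, which had the highest oocyte sum, the 2-cell list stood at 113 CPM, within the range of the controls (81.5 to 152 CPM). Of the 18 cumulus and granulosa genes, 13 had a count in some library, and the list summed to 8.13 to 32.7 CPM in controls, 8.11 to 63.5 CPM with 6% ethanol and 9.67 to 78.5 CPM with 10% ethanol. The cumulus genes Has2 and Ptx3 and the granulosa genes Fshr, Inhba and Cyp11a1 had 0 counts in all 9 libraries. Other granulosa genes had some: Foxl2 in 4 libraries, at up to 0.504 CPM, and Cyp19a1 in 6% ethanol 3 alone, at 2.19 CPM. The highest sums were mostly Amhr2, at 69.3 CPM in 10% ethanol 3 and 60.5 CPM in 6% ethanol 2. In control 1 Amhr2 had 0.813 CPM, below Star (5.29 CPM) and Bex1 (4.31 CPM). Of 12 sperm genes 6 were at 0 throughout, Prm2 and Tnp1 among them. The sum, 7.61 to 39.9 CPM, was mostly Odf2, a centrosomal and sperm tail protein at 7.61 to 39.8 CPM, followed by Tssk6 at up to 7.88 CPM. The part of these lists in the oocyte values was not tested.

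**Figure D4:**
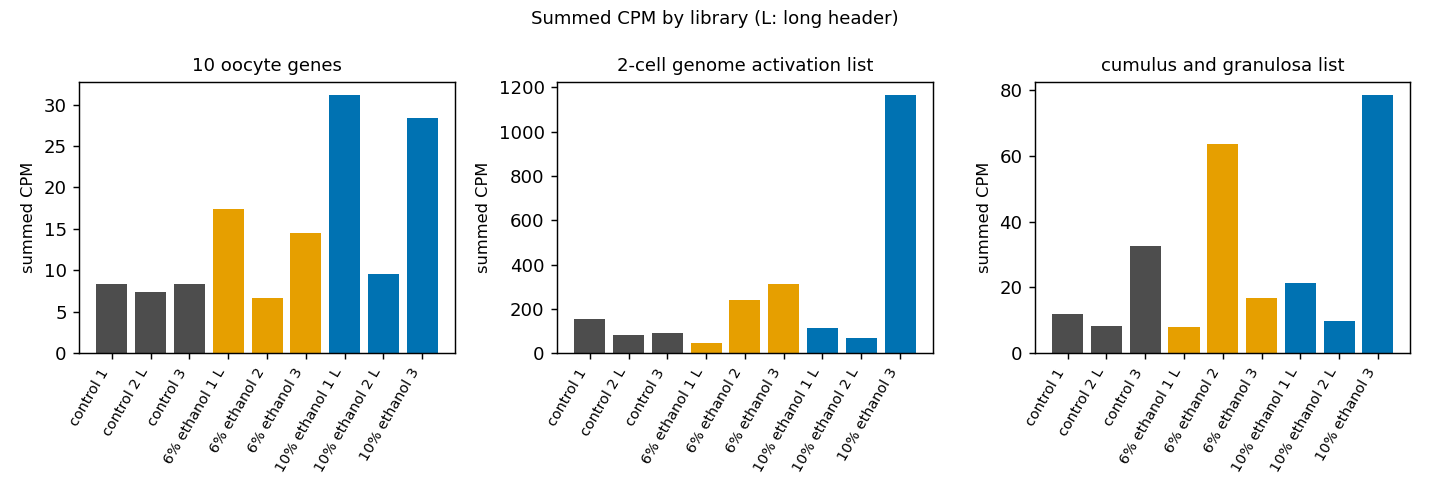
Summed CPM by library for the 10 oocyte genes, the 2-cell list and the cumulus and granulosa list (L marks long-header libraries). The oocyte sum is high in 10% ethanol 1 and 3 (31.1 and 28.3 CPM), and of these only 10% ethanol 3 is also high for the 2-cell list, at 1164 CPM.

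Not all genes with a maternal message were as scarce. Bulk counts do not separate RNA left from the oocyte from RNA that the embryo transcribes, here or in the next list. Among 51 other oocyte messages, 17 had a count in all 9 libraries and 5 had none anywhere, namely Oosp2, Figla, Nobox, Izumo1r and Pabpn1l. Figla and Nobox code for transcription factors that switch on zona and other oocyte genes, and Izumo1r for the egg's receptor for sperm. The list median was 0.412 CPM per kilobase, close to that of the 10 genes. At the other end stood Dppa3, a maternal factor that protects the methylation of the egg genome and is also transcribed by the embryo, with 780 to 4011 CPM, and Ddb1, a DNA repair and ubiquitin ligase protein, with 553 to 1573 CPM. None of the 24 that could be tested passed in any comparison. For 6% ethanol 13 were above 0 (median 0.18), for 10% ethanol 11 (median -0.13), and for 10% against 6% 12 (median -0.04).

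Of 15 genes of the subcortical maternal complex and Nlrp family, which the egg loads into its cortex, 5 had a count in every library. The list median was 0.740 CPM per kilobase. Khdc3, also called Filia, had 249 to 819 CPM and Nlrp4c 19.8 to 146 CPM, well above any of the 10 genes. None of 10 tested members passed by edgeR in any comparison. For 10% against 6% ethanol, DESeq2 called 1 of them, Nlrp5 (adjusted p = 0.0290, against 0.806 by edgeR), beside 0.464 percent of all genes. It is named here after its values were seen. Nlrp5 codes for MATER, and had 14.2 and 8.28 CPM in 10% ethanol 1 and 3, the libraries with the highest sums of the 10 genes, and 0 to 3.95 CPM in the others.

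The machinery that removes maternal messages was expressed throughout, with 36 of 40 genes counted in every library and a median of 9.97 CPM per kilobase. Pabpc1, the poly(A) binding protein, had 3418 to 5874 CPM and Cnot1, the scaffold of the deadenylase, 454 to 4179 CPM. Cnot7, the catalytic subunit that BTG4 binds, had 37.9 to 108 CPM, and the BTG4 relatives Btg1, Btg2 and Btg3 had 15.2 to 180, 16.9 to 306 and 13.1 to 30.9 CPM. Btg4 itself reached at most 1.75 CPM, and Pabpn1l, the egg's form of a nuclear poly(A) binding protein, had no counts. None of 38 tested genes passed. For 6% ethanol 18 were above 0 (median -0.05), for 10% ethanol 15 (median -0.13), and for 10% against 6% 12 (median -0.23).

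The partners through which these proteins act differed in level. Of 20 genes that act with MOS in meiotic arrest, 15 had a count in every library. Ccnb1, the cyclin of mitosis and meiosis, had 963 to 10940 CPM. The egg-specific regulators Fbxo43 and Wee2 had counts in only 3 and 4 libraries. None of 16 tested passed, with 9, 10 and 7 above 0 in the 3 comparisons (medians 0.06, 0.11 and -0.10). Among 14 receptors and effectors of GDF9 and BMP15, Smad4 had 33.1 to 348 CPM and Bmpr1a 71.6 to 253 CPM. Bmpr1b, the receptor that BMP15 prefers, had counts in 3 libraries. None of 12 tested passed, with 5, 2 and 7 above 0 (medians -1.14, -0.39 and 0.45). Of the 9 other linker histones only H1f0 (1.61 to 53.5 CPM) and H1f2 (0 to 7.72 CPM) passed the filter, and neither passed the test.

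Of the 5 filtered members, Zp2 had Pearson correlations near or below 0 with the other 4. Pairs among Zp3, Gdf9, Bmp15 and Oosp1 ran from near 0 to strong. Over 9 libraries, the Pearson correlation of log2(CPM + 1) was 0.838 for Gdf9 with Oosp1 and 0.726 for Zp3 with Bmp15. It was 0.575 for Gdf9 with Bmp15, 0.502 for Zp3 with Gdf9, 0.283 for Bmp15 with Oosp1 and 0.0572 for Zp3 with Oosp1. For Zp2 with the other 4 it lay between -0.26 and 0.000262. By rank (Spearman) correlation, Zp2 with Oosp1 and Zp3 with Oosp1 both had 0.134, and Zp2 with Gdf9 had 0.0333. Zp2 is therefore not clearly set apart from the others. These correlations are descriptions over libraries that differ in depth, and none of the values rests on more than 184 counts. The 5 genes of at least 10 CPM whose pattern was most like the mean of the filtered members were, of 6816, Fam76a (r = 0.952), the mitochondrial ribosomal RNA mt-Rnr2 (0.913), Ddx49 (0.894), Osbpl2 (0.892) and Nelfcd (0.890). They were picked as the highest of many over 9 libraries. Since mt-Rnr2 is a large part of the mitochondrial share given above, it is no separate observation.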

How the data were processed

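Total RNA of morulae was sequenced in 9 libraries. The deposited files hold raw counts per gene, made by the authors with featureCounts on the build GRCm39, per the submitters' processing notes, which also name DESeq2. Annotation, strand setting, versions and the counting of mates do not appear in the sources used here. Groups came from the treatment label, and replicate numbers, given in accession order, pair nothing. The members and gene lists were chosen with earlier results of these data known.

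Genes were filtered with edgeR's filterByExpr (minimum count 10), which left 12488, scaled by TMM and fitted in one quasi-likelihood model of 3 groups over 9 libraries, in R 4.3.3 with edgeR 4.0.16, limma 3.58.1 and DESeq2 1.42.0. Adjusted p-values were compared with 0.05. The procedure was also run on simulated data with known fold changes, and its power there is not given here. All 36 pairs of libraries differed beyond sampling noise (chi-square per degree of freedom at least 116).

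CPM used TMM-scaled totals. The limit of detection was 3 counts. It covers counting error only. Exon lengths came from GENCODE M21 (GRCm38) and matched 50512 of 53819 rows. Since that build differs from the files', no coordinates are given. No member's exons overlapped those of another gene there. All members were named, and of the other lists the 2 genes highest in mean CPM and any that passed, with further genes named as examples after their values were seen. A gene that this rule names is not reported here. Alternatives were RLE scaling, unscaled totals, other filters, DESeq2, fewer groups, header form, mitochondrial and rRNA genes left out, and each library left out.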

Additional observations from a re-analysis of the deposited data

How the results depend on the processing

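Under each alternative tried, 0 members passed in each of the 3 comparisons, with 5 to 10 members testable. The smallest adjusted p of a filtered member was 0.253, for 10% against 6% ethanol without 6% ethanol 1. Of 285 refitted log2 fold changes, 261 kept their sign. Among long-header libraries, control 2 and 6% ethanol 1 each stood alone in their group. Among short-header libraries, 10% ethanol 3 stood alone in its group. Fold changes by header form that use these groups rest on 1 library there. For 6% ethanol the sign turned in long-header libraries for Zp2 (-1.58), Bmp15 (0.97) and Oosp1 (1.20). Leaving out 1 library gave -2.25 to 1.57 for Zp2, -0.84 to 2.49 for Gdf9, -0.67 to 1.17 for Bmp15 and -6.77 to 0.42 for Oosp1, the lowest without 6% ethanol 1, which leaves 0 counts in that group and so gives no bound. For 10% ethanol only Zp2 turned, to -0.29 in short-header libraries and within -0.033 to 2.44 with 1 library left out. There Gdf9 ran from 1.46 to 3.52, Zp3 from 1.06 to 2.36, Oosp1 from 0.55 to 2.41 and Bmp15 from 0.95 to 2.79. For 10% against 6%, Zp2 was -1.13 in short-header libraries and -0.47 to 3.57 with 1 library left out. Zp3 was 0.11 on library size alone, 0.041 without the filter, 0.15 in long-header libraries and -0.91 to 0.84 with 1 library left out. In long-header libraries Gdf9 was -1.16 and Oosp1 -0.62. The cause was not tested. The control sum of 8.03 CPM became 8.80 on library size alone, 9.10 without mitochondrial and rRNA genes and 7.38 in its long-header library. With 1 library left out the sums ran from 7.85 to 8.35 CPM in controls, 10.6 to 15.9 with 6% and 18.9 to 29.7 with 10% ethanol. On unscaled totals the median over all genes was -0.28 at 6% and -0.18 at 10% ethanol, against -0.01 and -0.05 with TMM. With 3 counts required, 0 members were detected in every library in place of 1. Zp1, Mos, H1f8, Zar1 and Btg4 rest on 5 to 44 counts over all libraries, and their depth limits what can be compared.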

Other observations

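Some egg genes of the wider list were high in 1 or 2 libraries, and they are named here after their values were seen. Obox2, an oocyte homeobox gene, had 62.1 CPM in control 1, 0.324 and 0.567 CPM in control 2 and 10% ethanol 3, and 0 elsewhere. Gpr3, the receptor that keeps the oocyte in meiotic arrest, had 55.4 CPM in control 1 and 19.1 CPM in 10% ethanol 1, against 0.110 to 4.43 CPM in the other libraries. Wee2, the egg's inhibitory kinase of CDK1, had 8.48 CPM in control 3 and at most 0.522 CPM in the others. Other genes of the list peaked in ethanol libraries. Sohlh2 had 23.3 CPM in 6% ethanol 1, Obox1 13.0 CPM in 10% ethanol 1 and Oog3 9.43 CPM in 6% ethanol 3. High single libraries were therefore not particular to controls. Among the 10 stored messages, control 1 held the highest Zp1 and H1f8 values, and control 3 the highest Zar1 and Btg4 values. The remaining members were highest in ethanol libraries.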
